A study of Homo sapiens with 4 samples.

Results

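Heat shock proteins and chaperonins were followed through the stepwise conversion of human embryonic stem cells towards blood. The genes were taken by symbol: the DNAJA, DNAJB and DNAJC series, every HSPA, HSPB, HSPD, HSPE, HSPH and HSP90 symbol, the CCT series and TCP1. This gave 80 of the 17630 genes in the tables. They comprise 9 genes of the cytosolic chaperonin TRiC, 3 HSP90 genes, 2 genes of the mitochondrial chaperonin, 12 HSP70 genes and 3 HSP110 genes. The others are 8 genes with small heat shock protein symbols, 41 J protein genes and 2 partner genes whose symbols begin alike, HSPBP1 and HSPBAP1.

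The H1 line, a human embryonic stem cell line, was measured undifferentiated (hESC) and as 3 populations sorted by flow cytometry: APLNR+ cells of day 2 (MES), CD31+CD34+ cells of day 4 (HEP) and CD31+CD43+ cells of day 7 (HPC). The MES cells had received activin A at 40 ng/ml and BMP4 at 50 ng/ml for 2 days. The HEP cells had in addition received VEGF at 40 ng/ml and bFGF at 50 ng/ml for 2 days, and the HPC cells a further 3 days of VEGF and bFGF plus SB-431542, which blocks the receptors of activin and NODAL. All groups share the H1 line, and the labels name no genetic change and do not say how many cultures fed each library. Each group was 1 library, so no value below has a replicate error, no test was possible and no difference has a replicate check, and the read depth is unknown.

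Molecular chaperones bind unfolded or misfolded proteins and let them reach their native form. HSP70 proteins hold short hydrophobic stretches of a client, with J proteins delivering the client and triggering ATP hydrolysis and HSP110 proteins exchanging the nucleotide. HSP90 acts later, on nearly folded kinases and receptors, and the chaperonins TRiC (in the cytosol) and HSPD1 with its lid HSPE1 (in mitochondria) enclose a client in a chamber. Heat shock factors raise many of these genes under stress through heat shock elements in their promoters, but the constitutive members are among the abundant messages of growing cells.

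The deposited values summed to between 306724 (HEP) and 426980 (hESC), and between 5191 and 6655 genes stood at 5 or more in a library. The defining genes POU5F1, APLNR, CDH5 and SPN peaked where the labels place them, without being confined to that library. POU5F1, which marks undifferentiated cells, measured 1582 in hESC, 568 in MES, 112 in HEP, then 15.4 in HPC, and APLNR, the receptor of the first sort, 0.57, 344, 250 and 15.6 in the same order. CDH5 of endothelial cells stood at 73.5 in HEP and 25.1 in HPC, and SPN, which encodes the CD43 used in the sort, at 0.97 in HEP and 24.4 in HPC. RUNX1, a blood marker, was low in both, at 2.43 in HPC against 2.83 in HEP. PECAM1, which encodes CD31, was low in both populations sorted on it, at 1.83 in HEP and 7.49 in HPC. Of 5 markers of other cells, PTPRC, CD3E and ALB of mature leukocytes, T cells and hepatocytes stood at 0.04 or less and MYH6 of heart muscle at 0.20 or less in every library. The fifth, the neuronal tubulin TUBB3, measured 159 in hESC, 63.4 in MES, 93.0 in HEP, then 13.9 in HPC, and its part in the chaperone values was not tested. A trend with transcript GC content ran across all genes: over 6366 genes at a mean of 5 or more, the log2 difference of HEP against MES rose with GC content at a Spearman rho of 0.71. The chaperone genes have a median GC content of 46.5% at that level, against 51.6% for all such genes, and they followed the same trend at a rho of 0.74 over 48 members. Calls and differences of the members are therefore also given with the trend removed from each library. Whether the trend arose in the cells or in library making was not tested.

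A difference is the log2 of (value + 1) in the later population over (value + 1) in the earlier, which understates the change of low genes. A gene is called higher or lower where that difference is at least 1 in size, that is 2-fold, and the value is 5 or more in the higher library. The deposited values are read as a measure per transcript length, since they did not rise with length in any library (Spearman rho -0.20 to -0.29), but the sources do not name the measure, so ratios between genes are compared only across libraries. Of the 80 members, DNAJB8 was listed at 0 in every library, 14 including it stayed under 1 in all, 66 reached 1 in any library, 56 reached 5, 37 reached 20 and 19 reached 100.

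As deposited, most of the chaperone genes at 5 or more were highest in undifferentiated cells and lowest in the CD31+CD34+ cells. Of the 56 members at 5 or more, 39 peaked in hESC (69.6%), 11 in MES, 4 in HEP, then 2 in HPC, and 37 had their lowest value in HEP (66.1%). Among all 8174 genes at that level, 45.4% peaked in hESC and 38.9% had their lowest value in HEP. The descending order hESC, MES, HPC, HEP held for 29 of the 56 members (51.8%) and for 2061 of the 8174 genes (25.2%). Together the 80 members took 1.76% of the summed values in hESC, 1.29% in MES, 0.776% in HEP, then 1.102% in HPC. HSPA8, the constitutive cytosolic HSP70, dominated this sum, and without it the shares were 1.33%, 1.08%, 0.607% and 0.713% in the same order. With the trend removed, the shares of all 80 were 1.47%, 1.13%, 0.975% and 1.21%, a smaller dip at HEP. Peaks and orders were counted only as deposited, and for some genes they changed with the trend removed. HSPA8 was then highest in HPC (1684, against 1277 in hESC) and lowest in MES (641). HSP90AA1 was then highest in MES (152, against 131 in hESC), whereas HSPD1 stayed highest in hESC (417) and lowest in HEP (36.9).

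**Figure D1:**
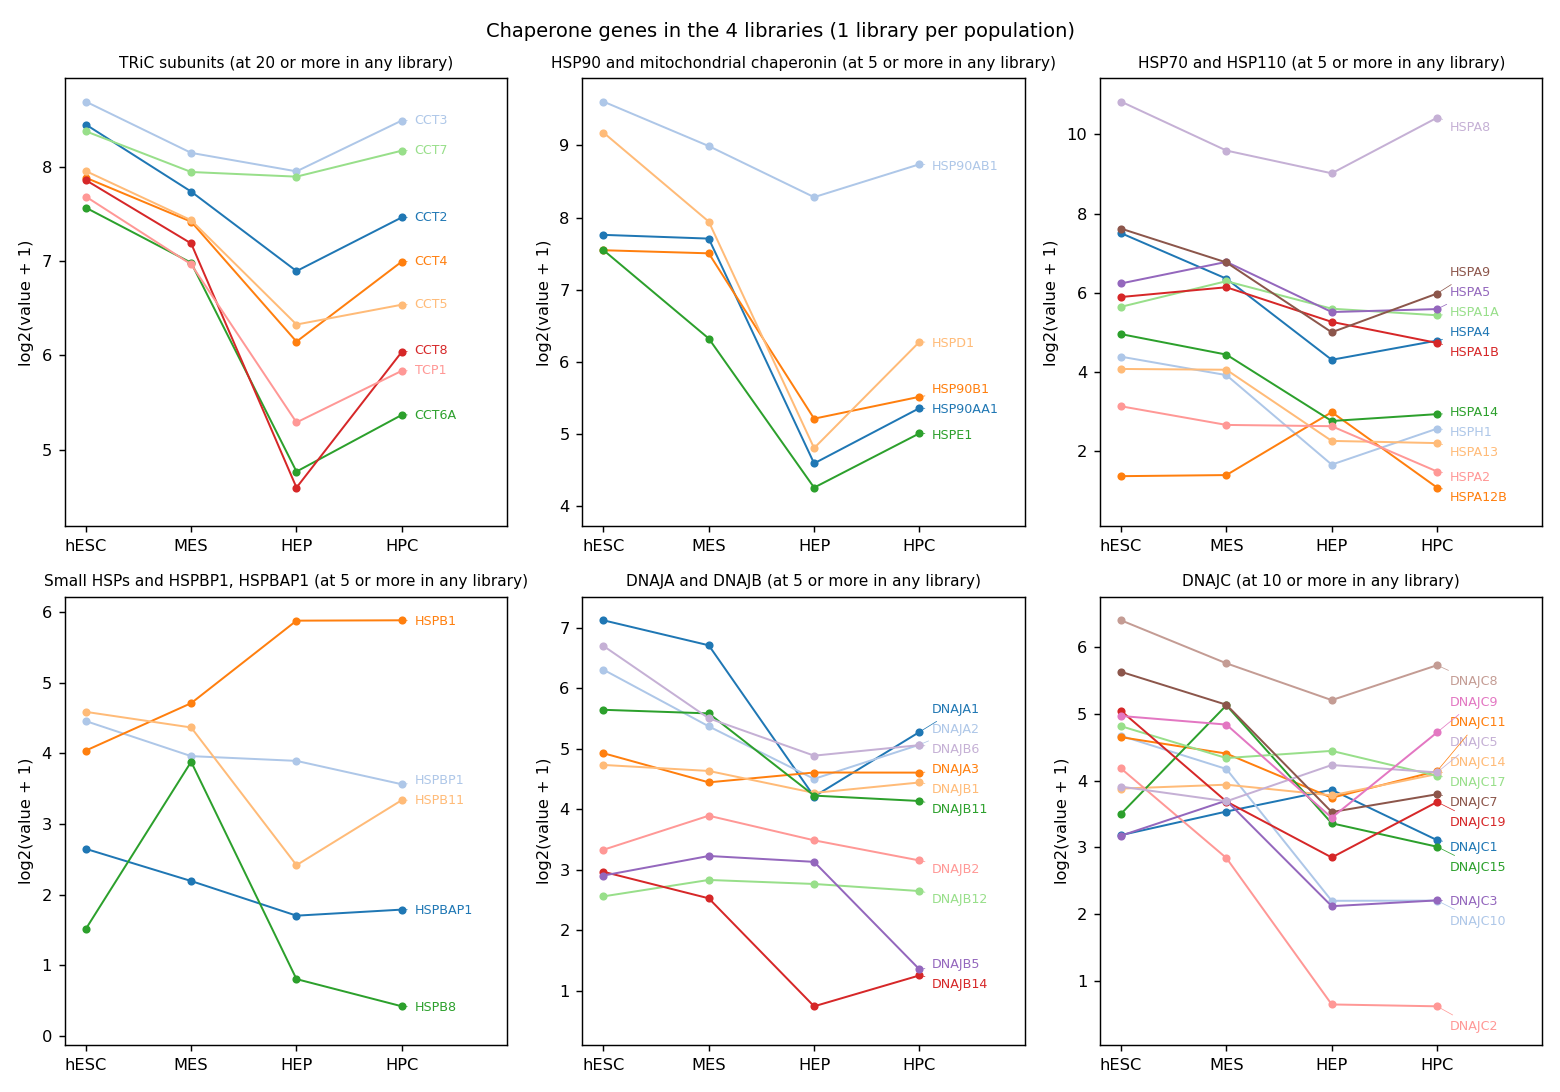
Values of chaperone genes in the 4 libraries, in 6 panels by family. The vertical axis is log2(value + 1) and the horizontal axis the population in order of culture time, with 1 line per gene and 1 library per point. Every line of the TRiC, HSP90 and mitochondrial chaperonin genes has its lowest point at HEP, HSPB1 climbs to 58.1 in HPC, and HSPB8 peaks at 13.8 in MES.

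In MES against hESC, the mitochondrial chaperonin genes HSPD1 and HSPE1, the abundant HSP70 gene HSPA8, the HSP110 gene HSPA4 and the J protein genes DNAJB6, DNAJC2 and DNAJC19 fell, and the small heat shock protein gene HSPB8 and the mitochondrial J protein gene DNAJC15 rose. Of 54 members at 5 or more in either library, 2 were higher and 7 lower. Over all 7458 genes, 8.97% were higher and 8.76% lower. The members' median difference was -0.46, against -0.21 over all genes. With the GC trend removed, 2 members were higher and 2 lower (HSPD1 and HSPE1) of 49, with a background of 10.7% higher and 5.72% lower. With the libraries rescaled to a common total, 4 of 52 members were lower (7.69%, against 4.99% of genes).

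In HEP against MES, 27 of 53 members fell, among them HSPD1, HSP90AA1, HSPB8, CCT8 and DNAJA1, and 3 rose, namely HSPB1, HSPA12B and DNAJC4. Over all 7225 genes, 33.9% were lower and 8.10% higher. The median difference was -1.11 for the members, against -0.39 for all genes. Once the trend was removed, 7 of 49 members were lower and 1 higher, against 12.9% and 9.49% of all genes, so the members' share of 14.3% lower stood near the background. Median-of-ratios scaling moved the median of all genes to 0.27. With it 22 of 53 members were lower (41.5%) and 4 higher (7.55%), against 20.6% and 20.7% of genes. Of the 7 lower with the trend removed, 5 were also lower before removal (HSP90AA1, HSP90B1, HSPB8, HSPD1 and HSPE1), and the heat-inducible HSP70 genes HSPA1A and HSPA1B passed the rule only afterwards.

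The share of members that fell in this step followed GC content, in bands chosen after the values were seen. Below 45% GC, 19 of 22 members were lower in HEP, against 79.1% of all genes in that band. Between 45% and 55%, 8 of 20 members were lower, against 27.7% of genes. At 55% and above, 0 of 11 members were lower, against 6.13% of genes. Removing the trend brought the members' rho with GC content to 0.03 and their median difference, over the 48 at a mean of 5 or more, to -0.31 where it had been -0.99.

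**Figure D2:**
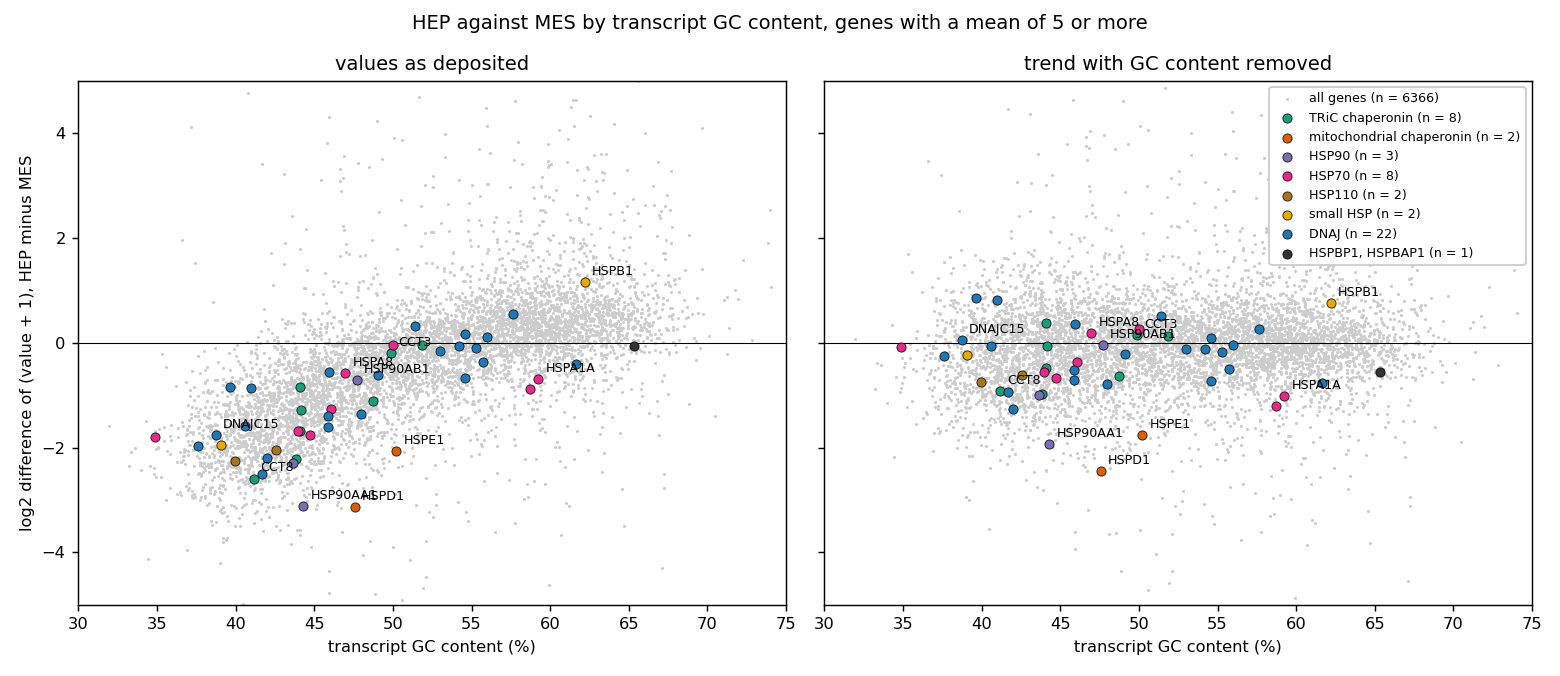
Log2 difference of HEP minus MES against transcript GC content in percent, for 6366 genes (grey) and 48 chaperone members (coloured by family) at a mean of 5 or more, as deposited (left) and with the GC trend removed (right). On the left the members lie along the slope of all genes, and on the right HSPD1, HSP90AA1 and HSPE1 are the 3 lowest members.

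In HPC against HEP, HSPA8, HSPD1, the TRiC subunit gene CCT8 and the J protein genes DNAJC9 and DNAJA1 rose, and HSPA12B, HSPA2 and DNAJB5 fell. These were 5 higher and 3 lower of 45 members, against 8.99% higher and 10.7% lower of all 5894 genes. The members' median difference was 0.28, against 0.02 for all genes. With the trend removed, 4 members were higher and 3 lower of 48, against 7.25% and 9.59% of genes, and only DNAJA1 was no longer called, at 0.66.

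In HPC against hESC, the ends of the culture, HSPB1 rose and 29 of 53 members fell, led by DNAJC2, HSPD1, HSPA4, HSPE1 and DNAJC10. Over all 7437 genes, 37.4% were lower and 11.1% higher. The members' median difference was -1.25, against -0.57 for all genes. After removal of the trend, 11 of 48 members were lower and 2 higher (HSPB1 and DNAJC15), against 17.0% and 16.3% of all genes. With median-of-ratios scaling, 20 of 49 members were lower (40.8%) and 1 higher (2.04%), against 21.9% and 22.2% of genes, whose median moved to 0.13. This comparison shares its libraries with the stepwise ones, so it is not independent of them.

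**Figure D3:**
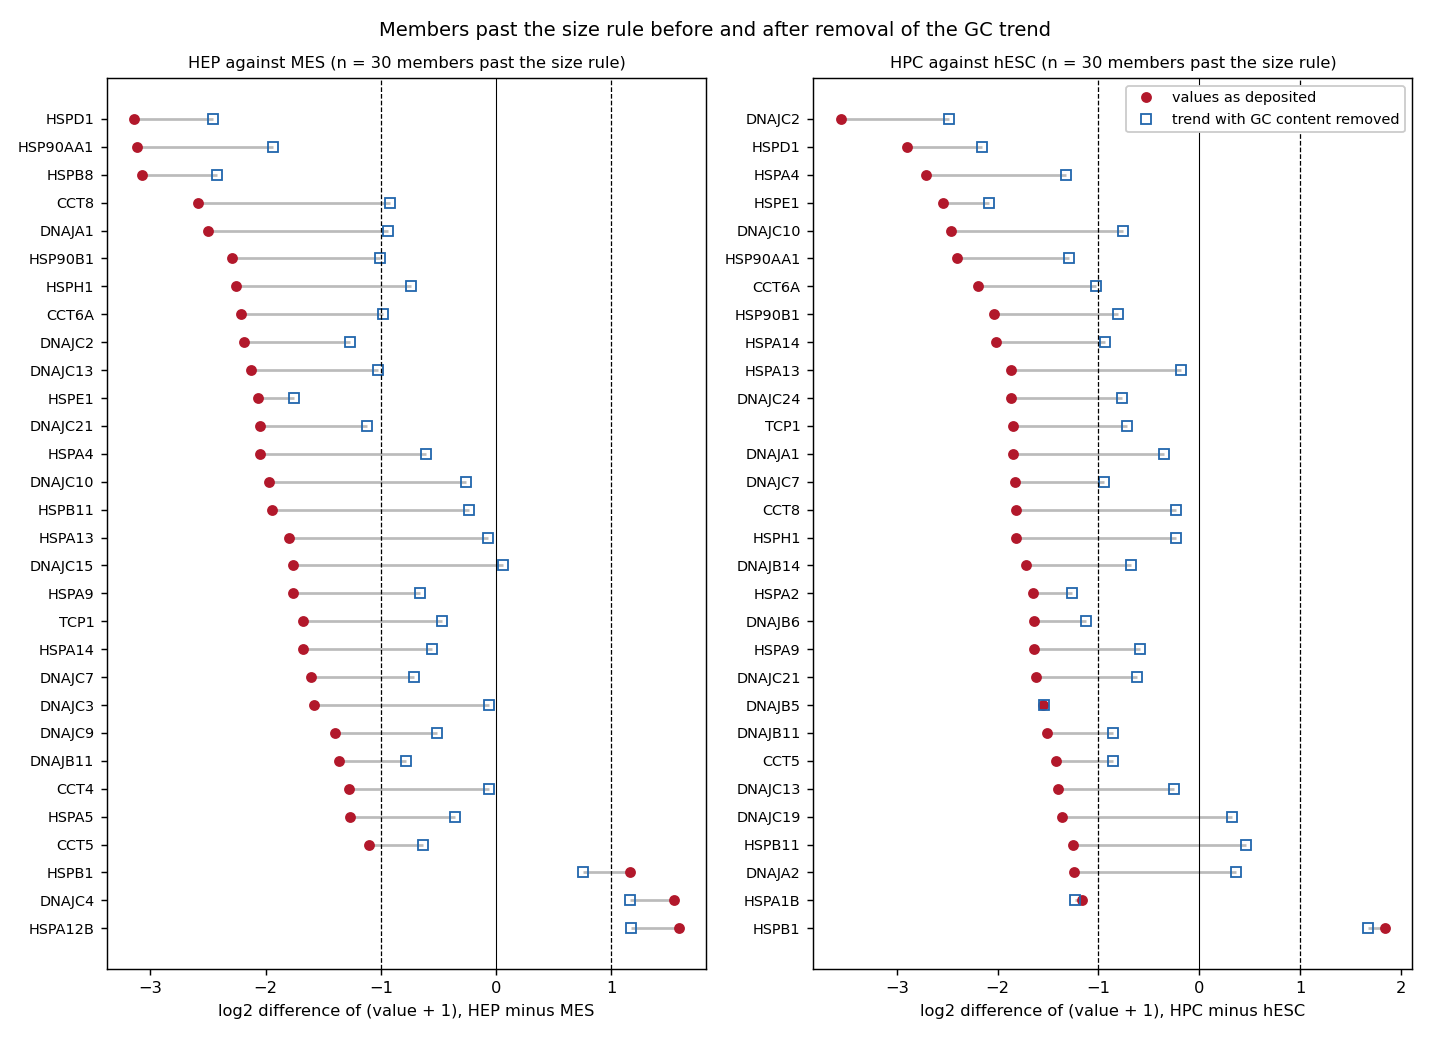
Log2 differences of the 30 members past the size rule in HEP against MES (left) and of the 30 in HPC against hESC (right), as deposited (filled circles) and with the GC trend removed (open squares), with dashed lines at a difference of 1 in size. HSPD1 lies at -3.14 and -2.45 on the left, whereas DNAJC15 lies at -1.77 and 0.06. An open square past a dashed line is not a call where its corrected value is under 5 in both libraries, as for DNAJC4.

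The mitochondrial chaperonin showed the steepest fall of the families by summed value, in MES against hESC, HEP against MES and HPC against hESC. HSPD1, which forms the folding chamber, measured 579 in hESC, 245 in MES, 27.0 in HEP, then 76.6 in HPC. HSPE1, which forms its lid, measured 186 in hESC, 79.1 in MES, 18.1 in HEP, then 31.2 in HPC. Both genes were highest in undifferentiated cells, lower at each step to HEP and higher again in HPC, where only HSPD1 passed the rule. The differences for HSPD1 were -1.23 in MES against hESC, -3.14 in HEP against MES and 1.47 in HPC against HEP, and -1.01, -2.45 and 1.31 with the trend removed. For HSPE1 they were -1.23, -2.07 and 0.75, and -1.02, -1.75 and 0.68 with the trend removed. HSPD1 and HSPE1 were called lower in HEP against MES, and in HPC against hESC, under every alternative tried. The summed level of the pair was 45.1 in HEP, against 324 in MES.

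HSPD1 and HSPE1 lie head to head on chromosome 2, their starts 105 or 539 bases apart in RefSeq (GRCh38.p14) depending on which of the listed HSPD1 starts is used. Their ratio was 3.11 in hESC, 3.10 in MES, 1.49 in HEP, then 2.45 in HPC, and 2.77, 2.80, 1.74 and 2.68 with the trend removed, lowest in HEP on both scales. In 50-base windows of GENCODE 29 transcripts, 17.8% of HSPD1 and 22.8% of HSPE1 sequence is shared with other genes, mostly pseudogenes and a read-through transcript, so their counting is partly uncertain. The window of the HSPD1 start that lies 539 bases from HSPE1 holds 2 overlapping heat shock elements, shown here because the pair moved together. They lie downstream of the other HSPD1 start, so they are not within the 105 bases between that start and HSPE1. The stretch is chr2:197500062-197500090 on the minus strand of GRCh38.p14, 5′ to 3′, with the matches in capitals.
HSPD1: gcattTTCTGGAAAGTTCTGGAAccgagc
The motif searched was 3 units, GAA then TTC then GAA or the inverse order, with 2 bases of any kind between units, on both strands of RefSeq promoter windows of 250 bases before to 50 after each start. It was found for 7 of the 73 members with a window (9.59%), namely DNAJA1, DNAJB6, HSP90AA1, HSP90AB1, HSPA6, HSPA8 and HSPD1, and for 166 of 27305 genes (0.608%). A match is a description of these letters and not a site shown to be bound. No mismatch was allowed, and HSPA1A, HSPA1B and DNAJB1, described below as inducible, had windows but no match. A missing match therefore does not show that a gene lacks heat shock elements.

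Other genes of mitochondrial folding did not all follow the chamber. HSPA9, the mitochondrial HSP70, measured 196 in hESC, 108 in MES, 31.1 in HEP, then 62.3 in HPC. It fell in HEP against MES at -1.76, and the difference was -0.66 with the trend removed. DNAJA3, a mitochondrial J protein of high GC content (54.6%), measured 29.4 in hESC, 20.8 in MES, 23.4 in HEP, then 23.3 in HPC and was called in no comparison. The mitochondrial HSP90 homologue TRAP1, which the symbol rule does not take, measured 75.1 in hESC, 32.4 in MES, 60.8 in HEP, then 91.7 in HPC. It fell in MES against hESC (-1.19, and -1.14 with the trend removed) and had its highest value in HPC. Of 11 mitochondrial proteases and partners, 3 fell (AFG3L2, CLPX and YME1L1, 27.3% against 33.9% of all genes) and 0 rose in HEP against MES. With the trend removed 1 fell (9.09%, against 12.9% of all genes), namely YME1L1, deposited at 5.51 in HEP against 33.1 in MES.

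DNAJC15 and DNAJC19, J proteins of the inner mitochondrial membrane at the protein import motor, went opposite ways in MES against hESC. DNAJC15 measured 10.3 in hESC, 34.0 in MES, 9.28 in HEP, then 7.06 in HPC. DNAJC19 measured 32.0 in hESC, 11.9 in MES, 6.21 in HEP, then 11.8 in HPC. As deposited DNAJC15 peaked in MES and DNAJC19 in hESC, but with the trend removed DNAJC15 was highest in HEP (20.86, against 19.97 in MES) and DNAJC19 in HPC (18.9, against 14.9 in hESC). In MES against hESC, DNAJC15 rose by 1.62 (1.89 with the trend removed) and DNAJC19 fell by 1.36 (-0.97 with the trend removed, short of the rule). The later fall of DNAJC15 in HEP against MES, -1.77, vanished with the trend removed, at 0.06. DNAJC15 in HPC against hESC had -0.49 as deposited and 1.15 with the trend removed, where it passed the rule as higher. Both genes have a low GC content, 38.7% and 39.7%.

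Among the HSP90 genes, the inducible and the constitutive cytosolic form parted. HSP90AA1, the stress-inducible form, measured 216 in hESC, 208 in MES, 23.1 in HEP, then 40.0 in HPC. HSP90AB1, the constitutive form, measured 780 in hESC, 508 in MES, 311 in HEP, then 426 in HPC. HSP90AA1 was lower in HEP than in MES by a difference of -3.12, the second lowest of the members, and HSP90AB1 had -0.71. Removing the trend left differences of -1.94 for HSP90AA1 and -0.04 for HSP90AB1. The ratio of HSP90AA1 to HSP90AB1 was 0.28 in hESC, 0.41 in MES, 0.07 in HEP, then 0.09 in HPC, and 0.23, 0.35, 0.09 and 0.10 with the trend removed. The GC content is 44.3% for HSP90AA1, in the band below 45%, and 47.7% for HSP90AB1, in the band above it. In these bands 79.1% and 27.7% of all genes were lower in HEP than in MES. HSP90AA1 and HSP90AB1 share 14.9% and 16.6% of their 50-base windows with other genes, chiefly HSP90 pseudogenes.

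Heat shock elements were found for both cytosolic HSP90 genes and are shown here because the genes moved apart. Each gene has more than 1 listed start, and its elements lie in the window of only 1 of them. Which start these cells use was not tested. The HSP90AA1 stretch is chr14:102087112-102087140 on the minus strand, and those of HSP90AB1 are chr6:44247770-44247798 and chr6:44247823-44247851 on the plus strand, all from RefSeq GRCh38.p14 with the match in capitals.
HSP90AA1: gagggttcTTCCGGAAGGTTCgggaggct
HSP90AB1 upstream: ggagcaggTTCTGGAAGATTCatgggctc
HSP90AB1 downstream: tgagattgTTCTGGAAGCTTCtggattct

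HSP90B1 and HSPA5, the HSP90 and the HSP70 of the endoplasmic reticulum, shared a promoter motif, and their ratio fell from hESC to HEP. HSP90B1 measured 186 in hESC, 181 in MES, 36.1 in HEP, then 44.8 in HPC. HSPA5 measured 74.5 in hESC, 109 in MES, 44.8 in HEP, then 47.2 in HPC. As deposited both were lowest in HEP, HSPA5 peaked in MES, and HSP90B1 was nearly level between hESC and MES. With the trend removed both peaked in MES, HSP90B1 at 128 (109 in hESC) and HSPA5 at 87.1 (49.6 in hESC). HSP90B1 was then lowest in HPC (61.7) and HSPA5 in hESC. In HEP against MES, HSP90B1 fell at -2.29 and HSPA5 at -1.27, and the differences were -1.004 and -0.36 with the trend removed. HSP90B1 thus lay at the rule's edge after removal. Their ratio was 2.50 in hESC, 1.66 in MES, 0.81 in HEP, then 0.95 in HPC, and 2.19, 1.47, 0.94 and 1.04 with the trend removed. The core of the endoplasmic reticulum stress element, searched on both strands as CCAAT and CCACG with 9 bases of any kind between them, was found in the windows of these 2 members only (2.74% of 73) and of 25 genes in all (0.0916%). The stretches are HSPA5 chr9:125241386-125241414 on the minus strand, and HSP90B1 chr12:103930211-103930239 and chr12:103930316-103930344 on the plus strand, with the match in capitals.
HSPA5: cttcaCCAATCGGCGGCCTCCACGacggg
HSP90B1 upstream: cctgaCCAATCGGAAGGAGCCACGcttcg
HSP90B1 downstream: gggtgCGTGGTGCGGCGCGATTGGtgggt

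The J proteins of the same compartment did not share a course. DNAJB11, which serves HSPA5, measured 49.0 in hESC, 47.0 in MES, 17.7 in HEP, then 16.6 in HPC. DNAJC3, a lumenal J protein that also restrains the stress kinase EIF2AK3, measured 8.04 in hESC, 12.01 in MES, 3.35 in HEP, then 3.62 in HPC. DNAJC10, which reduces disulphide bonds, measured 24.5 in hESC, 17.1 in MES, 3.60 in HEP, then 3.61 in HPC. All 3 fell in HEP against MES, at -1.36 for DNAJB11, -1.58 for DNAJC3 and -1.97 for DNAJC10, and with the trend removed the differences were -0.78, -0.06 and -0.26, so none kept its call. DNAJC1, a J protein of the same membrane system, peaked in HEP, at 8.09 in hESC, 10.6 in MES, 13.6 in HEP, then 7.63 in HPC. DNAJB12, anchored there too, lay between 4.89 and 6.11 in the 4 libraries. In HEP against MES, DNAJC1 had 0.33 and DNAJB12 -0.07, and neither was called in any comparison. DNAJB14, a J protein of the membrane of this organelle, measured 6.81 in hESC, 4.76 in MES, 0.67 in HEP, then 1.38 in HPC and was lower in HPC than in hESC by -1.71, which was -0.68 with the trend removed. HSPA13, a microsomal HSP70 with the lowest GC content of the 48 members (34.9%), measured 15.9 in hESC, 15.7 in MES, 3.80 in HEP, then 3.62 in HPC. Its difference in HEP against MES was -1.80, and -0.07 with the trend removed.

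The folding enzymes and lectins of this compartment included lower calls and no higher ones. Of 12 at 5 or more, 0 rose and 2 fell in HEP against MES (CANX and MANF, 16.7% against 33.9% of all genes), with a median of -0.03, and 1 fell in HPC against HEP (TXNDC5, 8.33% against 10.7%). Over the whole culture, HPC against hESC, 4 fell (CANX, MANF, PDIA3 and PDIA6, 33.3% against 37.4%), and 0 with the trend removed. CALR, a lectin chaperone of 54.3% GC, measured 364 in hESC, 300 in MES, 348 in HEP, then 468 in HPC. PPIB, the most abundant of the list in HEP, stood at 604 there, against 482 in MES. Of 7 regulators of the unfolded protein response at 5 or more, 1 rose (14.3%) and 2 fell (28.6%) in HEP against MES, against 8.10% and 33.9% of all genes, with a median of -0.48. Removing the trend turned the balance: of 8 regulators, ATF6, SEL1L and TRIB3 were higher and ATF4 was lower, against 9.49% and 12.9% of genes, with a median of 0.21. PPP1R15A, a phosphatase subunit, rose in MES, at 35.6 against 5.01 in hESC, and TRIB3 rose in HEP, at 34.5 against 8.85 in MES. ATF4, a transcription factor upstream of these genes, fell in HEP, at 114 against 247 in MES. XBP1 measured 63.2 in hESC, 55.1 in MES, 54.0 in HEP, then 49.1 in HPC and was called in no comparison.

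HSPA8 was the highest chaperone transcript in every library. It measured 1819 in hESC, 772 in MES, 518 in HEP, then 1372 in HPC. It fell in MES against hESC (-1.24, and -0.99 with the trend removed) and rose in HPC against HEP (1.40, and 1.20 with the trend removed). The rise was called under every alternative tried, whereas HSPA8 in HEP against MES had -0.57 as deposited and 0.19 with the trend removed. Its promoter holds 2 heat shock elements, at chr11:123062346-123062374 and chr11:123062171-123062199 on the minus strand of GRCh38.p14, with the match in capitals.
HSPA8 upstream: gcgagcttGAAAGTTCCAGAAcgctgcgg
HSPA8 downstream: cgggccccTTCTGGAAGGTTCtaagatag

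The heat-inducible HSP70 genes HSPA1A and HSPA1B had another profile. HSPA1A measured 49.2 in hESC, 77.6 in MES, 47.5 in HEP, then 42.3 in HPC. HSPA1B measured 58.6 in hESC, 69.7 in MES, 37.6 in HEP, then 25.7 in HPC. The 2 genes share 71.3% of HSPA1A and 71.4% of HSPA1B in 50-base windows, so their reads cannot be told apart along most of their length and their sum is the safer value. The sum was 108 in hESC, 147 in MES, 85.1 in HEP, then 67.9 in HPC, highest in MES. Relative to HSPA8 it was 0.059 in hESC, 0.191 in MES, 0.164 in HEP, then 0.050 in HPC. After removal of the trend this ratio was 0.0893, 0.250, 0.1004 and 0.0403, so the HEP value moved most and MES was highest on both scales. The differences of HEP against MES were -0.69 for HSPA1A and -0.87 for HSPA1B, short of the rule, and -1.02 and -1.20 with the trend removed, past it. At 59.3% and 58.7% GC, these genes lie in the band of 55% and above, where the median difference of all genes was 0.34. The sum of the pair had -0.79, and -1.12 with the trend removed. In HPC against hESC, HSPA1B had -1.16, a call lost with median-of-ratios scaling and with a common total (-0.56 at its smallest). The sum had -0.67 there, -0.75 with the trend removed and -0.05 with median-of-ratios scaling, short of the rule in each.

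HSPA6, the strictly inducible HSP70 gene, stayed at 0.56 or less in every library, with its peak in MES. Its promoter holds a heat shock element at chr1:161524458-161524486 on the plus strand of GRCh38.p14, match in capitals, so the motif is present for a gene near 0 here and for HSPA8, the highest member.
HSPA6: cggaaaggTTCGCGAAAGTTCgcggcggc
DNAJB1, the inducible partner of HSPA1A, measured 25.6 in hESC, 23.8 in MES, 18.3 in HEP, then 20.7 in HPC. Of 4 heat shock factors and regulators at 5 or more, 0 rose and 2 fell in HEP against MES (HSBP1 and HSF2). That is 50% lower, against 33.9% of all genes, and 0 were called with the trend removed. HSF1, the main heat shock factor, measured 14.1 in hESC, 13.0 in MES, 24.1 in HEP, then 18.5 in HPC and was not called. HSF2 measured 7.39 in hESC, 9.91 in MES, 2.05 in HEP, then 5.02 in HPC and had a difference of -1.84 in HEP against MES. Immediate early genes, which cell dissociation can induce, were examined in MES against hESC, where HSPA1A and HSPA1B had 0.65 and 0.25, short of the rule. Of 8 at 5 or more, 6 rose (75%, against 8.97% of all genes) and 0 fell. JUN stood at 53.7 in MES against 3.17 in hESC and EGR1 at 12.6 against 0.32. JUN, EGR1, IER3 and ATF3 peaked in MES. FOS and JUNB peaked in HPC, at 70.5 and 38.8 (56.3 and 8.71 in MES), and IER2 and DUSP1 in HEP, at 106 and 20.5. The part of the immediate early genes in the HSPA1A and HSPA1B values was not tested.

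The other HSP70 genes included the only member called higher in HEP against MES and lower in HPC against HEP. HSPA12B, a divergent HSP70 known from endothelial cells, measured 1.59 in hESC, 1.64 in MES, 6.94 in HEP, then 1.12 in HPC. It rose in HEP against MES (1.59) and fell in HPC against HEP (-1.91), and with the trend removed the differences were 1.18 and -1.62. At a minimum of 20 it is not counted. The endothelial gene CDH5 had its highest value in the same library, 73.5, and the part of cell composition in the HSPA12B values was not tested. In these sorted pools, fewer cells expressing a gene and less RNA per cell cannot be told apart. HSPA2, best known from the testis, measured 7.80 in hESC, 5.35 in MES, 5.21 in HEP, then 1.81 in HPC and fell in HPC against HEP (-1.14, and -1.24 with the trend removed).

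The ribosome-bound pair HSPA14 and DNAJC2, which meets nascent chains, fell together. HSPA14 measured 30.1 in hESC, 20.7 in MES, 5.80 in HEP, then 6.67 in HPC. DNAJC2 measured 17.2 in hESC, 6.17 in MES, 0.57 in HEP, then 0.54 in HPC, the steepest loss of any member over the whole culture. In HPC against hESC the differences were -2.02 for HSPA14 and -3.56 for DNAJC2, and -0.94 and -2.48 with the trend removed. DNAJC2 kept that call after removal, and HSPA14 did not. A minimum of 20 leaves DNAJC2 out.

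The HSP110 genes followed the same course. HSPA4 measured 181 in hESC, 81.1 in MES, 18.9 in HEP, then 26.8 in HPC. HSPH1, which is heat-inducible, measured 19.96 in hESC, 14.2 in MES, 2.17 in HEP, then 4.95 in HPC. HSPA4 fell in MES against hESC (-1.15) and in HEP against MES (-2.05), and its difference of -2.71 in HPC against hESC remained past the rule with the trend removed, at -1.32. HSPH1 had -1.82 in HPC against hESC, and -0.24 with the trend removed. The third gene, HSPA4L, reached 1.47 at most.

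Other partners of HSP70 were mixed. Of 14 nucleotide exchange and partner factors, 1 rose and 5 fell in HEP against MES (35.7% lower, against 33.9% of all genes), and with the trend removed 1 rose and 2 fell (14.3% lower, against 12.9%). SIL1, an exchange factor for HSPA5, rose: it measured 1.91 in hESC, 4.13 in MES, 15.8 in HEP, then 17.3 in HPC. ST13, which links HSP70 to HSP90, fell to 18.2 in HEP, against 62.1 in MES, and was not called with the trend removed. The partner genes HSPBP1, an inhibitor of HSP70 cycling, and HSPBAP1 were not called as deposited. HSPBP1 measured 21.0 in hESC, 14.6 in MES, 13.9 in HEP, then 10.8 in HPC, and HSPBAP1 at 5.28 in hESC, 3.58 in MES, 2.26 in HEP, then 2.46 in HPC. HSPBP1 was, after removal, called lower in HPC against hESC, at -1.05. Of 18 HSP90 co-chaperones, 0 rose and 5 fell (27.8%, against 33.9% of all genes) in HEP against MES (CHORDC1, PPID, PTGES3, SUGT1 and TOMM70A), and with the trend removed only CHORDC1 was called, at 1.14 in HEP against 14.9 in MES.

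The TRiC chaperonin, which folds actin and tubulin, is a ring of 8 different subunits, and its transcripts were less even in HEP. CCT3 measured 413 in hESC, 283 in MES, 247 in HEP, then 359 in HPC. CCT7 measured 332 in hESC, 246 in MES, 237 in HEP, then 288 in HPC. These were the highest subunits in HEP and had the smallest differences in HEP against MES.

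The other 6 subunits were lower in HEP than in MES by wider margins. CCT2 measured 349 in hESC, 213 in MES, 118 in HEP, then 176 in HPC. CCT4 measured 235 in hESC, 170 in MES, 69.8 in HEP, then 127 in HPC. CCT5 measured 247 in hESC, 172 in MES, 79.3 in HEP, then 91.9 in HPC. CCT4 and CCT5 were the middle pair of subunits in every library and so set the median of the 8 between them. Their 0.84 to 1.16 times that median follows from this and does not show steadiness. CCT2 stayed between 1.24 and 1.61 times the median. TCP1, the alpha subunit, measured 205 in hESC, 124 in MES, 38.1 in HEP, then 56.2 in HPC. CCT6A measured 189 in hESC, 126 in MES, 26.2 in HEP, then 40.3 in HPC. CCT8 measured 231 in hESC, 145 in MES, 23.2 in HEP, then 64.7 in HPC. These were the 3 lowest subunits in HEP and in HPC. CCT6B, a testis-associated form, was at 0.41 or less throughout.

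In MES against hESC, 0 of 8 subunits were called, with differences between -0.72 and -0.43. At the next step, HEP against MES, 5 of 8 fell (CCT4, CCT5, CCT6A, CCT8 and TCP1), with differences between -2.59 and -1.11, which is 62.5% of the 8 against 33.9% of all genes and, below 45% GC, where 4 of these 5 lie, 79.1%, while CCT3 had -0.20 and CCT7 -0.05. With the trend removed 0 of 8 were called, with CCT8 at -0.92 and CCT6A at -0.98 lowest and CCT2 at 0.38 highest. In HPC against HEP, CCT8 rose by 1.44, and by 1.01 with the trend removed. Across the culture, CCT6A was lower in HPC than in hESC by -2.20, and by -1.02 with the trend removed, and was called under every alternative tried.

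The ratio of the highest to the lowest of the 8 subunits was 2.19 in hESC, 2.28 in MES, 10.6 in HEP, then 8.91 in HPC. After removal of the trend it was 2.94, 2.91, 6.45 and 7.36 in the same order, so the spread was wider in the later populations on both scales. The low subunits have GC contents of 41.1% (CCT8) to 44.1% (TCP1), and CCT3 and CCT7 have 49.9% and 51.8%. CCT2 and CCT4 also have 44.1% and did not drop as far as TCP1. The summed level of the 8 genes was 2201 in hESC, 1478 in MES, 839 in HEP, then 1202 in HPC, and with the trend removed 1513, 1209, 1133 and 1442.

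**Figure D4:**
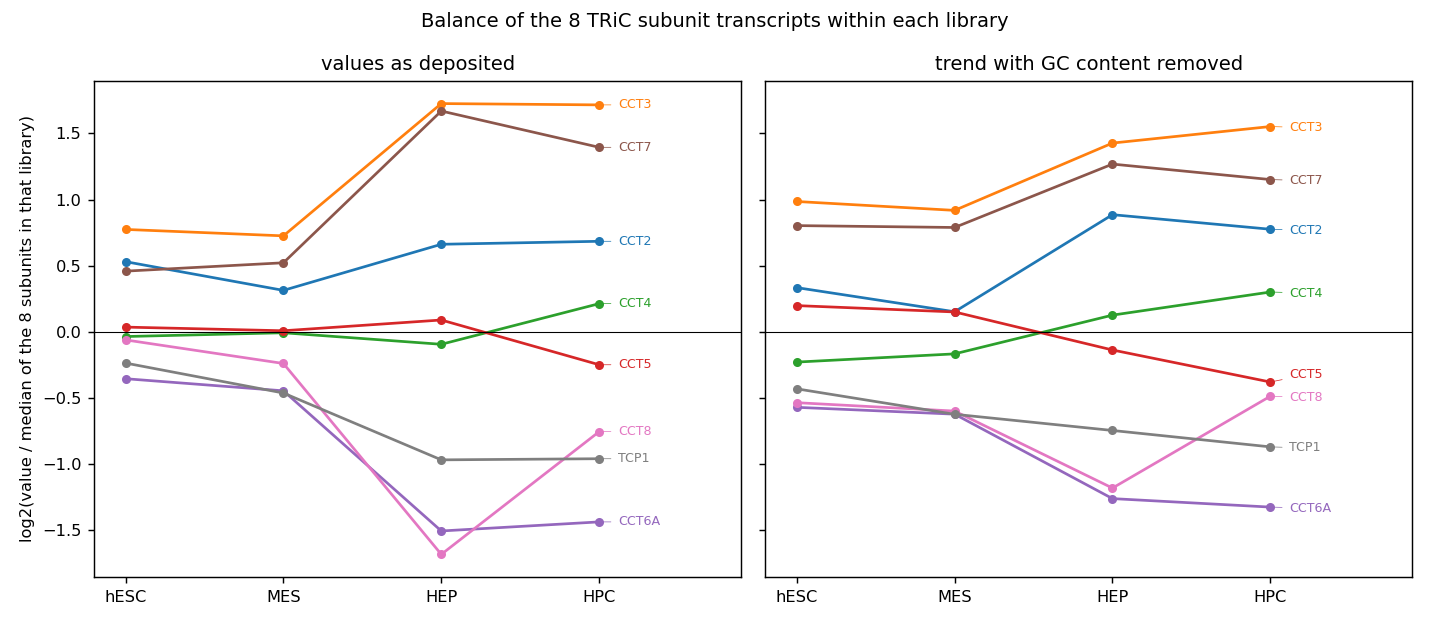
Level of each of the 8 TRiC subunit transcripts relative to the median of the 8 in the same library, as log2, as deposited (left) and with the GC trend removed (right). Lines join the same gene across the 4 populations. The lines fan out at HEP in both panels, with CCT3 and CCT7 above and CCT6A, CCT8 and TCP1 below.

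The partners and clients of TRiC did not share 1 course. Of 14 prefoldin, phosducin-like and tubulin cofactor genes, 0 rose and 5 fell (35.7%, against 33.9% of all genes) in HEP against MES. Among them were TBCA (41.4 in HEP against 201 in MES) and VBP1 (9.29 against 42.9). With the trend removed 1 rose and 2 fell (7.14% and 14.3%, against 9.49% and 12.9% of all genes). PFDN5, the highest of them, measured 330 in hESC, 250 in MES, 283 in HEP, then 400 in HPC. Of the 11 actin and tubulin genes, 1 rose and 2 fell in HEP against MES (9.09% and 18.2%, against 8.10% and 33.9% of all genes). In HPC against HEP, 7 of the 11 fell (63.6%, against 10.7% of all genes), with TUBA1A at 103 in HPC against 806 in HEP and TUBB2B at 16.7 against 183. With the GC trend removed, 6 of the 11 fell in that step (54.5%, against 9.59% of all genes). The subunit genes of TRiC had positive differences there, between 0.21 and 1.44.

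The small heat shock proteins, which hold unfolded chains without ATP, did not share a course. HSPB1, the highest of them in MES, HEP and HPC, measured 15.5 in hESC, 25.2 in MES, 57.9 in HEP, then 58.1 in HPC. It was the only one of the 56 members at 5 or more with a rising order (1.79%, against 4.50% of 8174 genes). Its last step, HPC against HEP, was nearly flat, at 0.005. As deposited it was also the only member called higher in HPC against hESC, at 1.84 (1.89% of members, against 11.1% of all genes). Without the trend that difference was 1.67, and the call held under every alternative tried. HSPB1 in HEP against MES had 1.17 as deposited and 0.76 with the trend removed, so that step alone did not remain past the rule. HSPB1 has a GC content of 62.2%, and 9.70% of its 50-base windows are shared with a pseudogene.

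HSPB8, which works with the co-chaperone BAG3 to send clients to autophagy, peaked in MES. HSPB8 measured 1.86 in hESC, 13.8 in MES, 0.75 in HEP, then 0.34 in HPC. BAG3 measured 1.70 in hESC, 14.2 in MES, 5.39 in HEP, then 2.58 in HPC. Both were highest in MES and low in hESC and HPC. HSPB8 rose in MES against hESC (2.37) and fell in HEP against MES (-3.08), and BAG3 likewise (2.50 and -1.25). With the trend removed these differences were 2.43 and -2.42 for HSPB8 and 2.55 and -1.54 for BAG3. HSPB11, an intraflagellar transport protein despite its symbol, measured 23.1 in hESC, 19.7 in MES, 4.35 in HEP, then 9.13 in HPC. It fell in HEP against MES by 1.95, with -0.23 after removal. HSPB2 reached 1.58 at most, and HSPB3, HSPB6, HSPB7 and HSPB9 stayed under 1 in every library.

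Among cytosolic J proteins, DNAJA1 and DNAJA2, general partners of HSPA8, had unequal differences in HEP against MES. DNAJA1 measured 139 in hESC, 104 in MES, 17.5 in HEP, then 37.8 in HPC. DNAJA2 measured 78.2 in hESC, 40.4 in MES, 21.7 in HEP, then 32.5 in HPC. There DNAJA1 fell by 2.50 and DNAJA2 had -0.87, and with the trend removed DNAJA1 had -0.93 and DNAJA2 0.81. Their GC contents are nearly equal, at 41.7% and 41.0%. DNAJA2 was lower in HPC than in hESC by -1.24, and this turned to 0.36 with the trend removed.

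DNAJB6, which keeps aggregation-prone chains soluble, fell early. It measured 103 in hESC, 44.4 in MES, 28.6 in HEP, then 32.4 in HPC. Its difference in MES against hESC was -1.20, and -0.99 with the trend removed, and that in HPC against hESC was -1.64, which was -1.12 with the trend removed and was called under every alternative tried. Its promoter holds a heat shock element at chr7:157336865-157336893 on the plus strand of GRCh38.p14, match in capitals.
DNAJB6: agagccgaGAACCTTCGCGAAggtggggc
DNAJB5 fell late: it measured 6.48 in hESC, 8.36 in MES, 7.75 in HEP, then 1.55 in HPC. Its difference in HPC against HEP was -1.78, and -1.73 with the trend removed.

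Of the 26 DNAJC genes, which serve varied organelles and complexes, DNAJC9 was the only one called higher in HPC against HEP. That is 1 of 11 at 5 or more (9.09%), near the 8.99% of all genes. DNAJC9, a chaperone of histones H3 and H4, measured 30.3 in hESC, 27.6 in MES, 9.89 in HEP, then 25.4 in HPC. Its difference there was 1.28, and 1.02 with the trend removed, and it kept that call under every alternative tried. DNAJC7, which binds HSP70 and HSP90, measured 48.5 in hESC, 34.2 in MES, 10.6 in HEP, then 12.9 in HPC. Its difference in HEP against MES was -1.61, and -0.72 with the trend removed. DNAJC8, found with the splicing machinery, measured 83.4 in hESC, 53.0 in MES, 35.9 in HEP, then 52.0 in HPC and was called in no comparison.

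DNAJC13, an endosomal J protein, measured 5.60 in hESC, 7.13 in MES, 0.86 in HEP, then 1.49 in HPC. DNAJC21, which acts in maturation of the large ribosomal subunit, measured 5.88 in hESC, 6.45 in MES, 0.80 in HEP, then 1.24 in HPC. DNAJC24, an enzyme partner in diphthamide synthesis, measured 5.88 in hESC, 3.16 in MES, 0.50 in HEP, then 0.88 in HPC. All 3 were under 1 in HEP, and with the trend removed none of them was called in any comparison. For DNAJC13 and DNAJC21 the differences in HEP against MES were still past 1 in size after removal, at -1.03 and -1.12, but the corrected values were under the minimum of 5. DNAJC4 rose in HEP against MES (1.55), standing at 2.50 in hESC, 1.13 in MES, 5.22 in HEP, then 3.80 in HPC. It is just above the minimum and no longer called with the trend removed.

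Other J protein genes did not pass the rule. DNAJC11, a mitochondrial protein, measured 24.1 in hESC, 20.2 in MES, 12.4 in HEP, then 16.7 in HPC. DNAJC17 measured 27.1 in hESC, 19.2 in MES, 20.8 in HEP, then 15.8 in HPC. DNAJB2, DNAJB12, DNAJC1, DNAJC5 and DNAJC14 peaked between 6.11 and 17.8 and, like these, were called in no comparison. A further 10 members peaked between 1.11 and 4.56, too low for the rule. Those under 1 in every library were DNAJA4, DNAJB8, DNAJB13, DNAJC6, DNAJC22, DNAJC25, DNAJC27, HSPA6, HSPA12A, CCT6B, HSPB3, HSPB6, HSPB7 and HSPB9.

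Members near the threshold show how much it decides. In HEP against MES, CCT5 lay just inside at -1.11 and HSPA1B just outside at -0.87. In HPC against hESC, HSPA1B lay just inside at -1.16 and CCT2 just outside at -0.99. In MES against hESC, HSPA4 lay just inside at -1.15 and DNAJA2 just outside at -0.94. In HPC against HEP, DNAJA1 lay just inside at 1.07 and HSPA9 just outside at 0.98.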

How the data were processed

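Per the labels' protocols, Trizol RNA went into Illumina TruSeq RNA libraries. The authors deposited 1 table per library, with a normalised signal for each gene. Per the submitters' processing notes BWA, Bowtie, RSEM and hg19 were used. Not given in the sources used here are their versions and roles, the RSEM measure, the annotation and strand use. Each table had 17634 rows, of which 28 carry symbols turned into dates and 4 with duplicate names were left out.

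Since each group is 1 library, genes were compared by the size rule (pseudocount 1, minimum 5) over the whole table, with no test. The members and lists were chosen with earlier results of these data known. All 4 values are given for members past the rule in any comparison, for TRiC, HSP90, HSPD1, HSPE1, HSPH1, for HSPA and HSPB genes at 5 or more and for DNAJ genes at 20 or more. Genes of other lists are named if past the rule or highest in their list, except XBP1, HSF1, CALR and the markers, which like the members DNAJC1 and DNAJB12 were chosen after their values were seen. ERO1L and ODF1 of the lists are not in the tables, and protein sequences were not used here.

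GC content was the median over the protein-coding GENCODE 29 transcripts of a gene, matched by symbol or RefSeq synonym for 17426 genes (98.8%). Short transcripts counted like long ones, so this value can differ from that of the main transcript. The median transcript length was 666 bases for HSPD1, 570 for HSPE1, 584 for HSPA9 and 780 for TCP1. How far this moves the values with the trend removed was not tested. The trend was the median log2 deviation in 50 GC bins, averaged over 5 neighbours. Alternatives were a pseudocount of 0.1, no minimum, a minimum of 20, median-of-ratios scaling, a common total and removal of the GC trend. Promoter windows are RefSeq GRCh38.p14 and were matched for 73 of 80 members by symbol. These members have 97 windows, since some have several listed starts, and a match in any window counts. The procedure was also run on simulated data with a straight slope on GC content, whereas the trend here is less steep at high GC content. The same GC values made and corrected the simulated data, so that run cannot show errors in them. Python 3.11.15, numpy 2.4.6, pandas 2.3.3 and matplotlib 3.10.9 were used.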

Additional observations from a re-analysis of the deposited data

How the results depend on the processing

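With the GC trend removed, 2 members were lower in MES against hESC, where the deposited values gave 7. In HEP against MES, removal left 1 higher and 7 lower, where the deposited values gave 3 and 27. In HPC against hESC it left 2 higher and 11 lower, where they gave 1 and 29. A common total gave 4 lower in MES against hESC. A minimum of 20 gave 1 higher in MES against hESC, 1 higher in HEP against MES and 0 lower in HPC against HEP, since fewer genes are tested. Under the other settings each count stayed within 1.5 times. The median of the genes with small heat shock protein symbols in HEP against MES was -1.95, which is the difference of the transport gene HSPB11. It turned to 1.17 at a minimum of 20, which leaves HSPB1 alone. Removal of the GC trend turned the sign of these called differences: DNAJC15 in HEP against MES to 0.059, and in HPC against hESC DNAJA2 to 0.36, DNAJC19 to 0.33 and HSPB11 to 0.47. It also turned differences not called as deposited, among them DNAJC15 in HPC against hESC to 1.15, which passes the rule, and in HEP against MES DNAJA2 to 0.81 and DNAJC19 to 0.86. Calls held under all 6 alternatives for 2 of 9 members in MES against hESC (DNAJC15 and HSPD1), 4 of 30 in HEP against MES (HSP90AA1, HSP90B1, HSPD1 and HSPE1), 4 of 8 in HPC against HEP (DNAJC9, HSPA8, CCT8 and HSPD1) and 7 of 30 in HPC against hESC (DNAJB6, HSPA4, HSP90AA1, CCT6A, HSPD1, HSPE1 and HSPB1). A minimum of 20 also removes any low gene, whatever its difference. No paired analysis was possible because each group is 1 library, and for the same reason no library could be left out. Depth is unknown, so what a low value can show is unknown too.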

Other observations

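Other chaperone genes fall outside the symbol rule. CLU, a secreted chaperone, measured 24.0 in hESC, 4.65 in MES, 1.77 in HEP, then 2.63 in HPC, and fell in MES against hESC (-2.15, and -2.08 with the GC trend removed). The lens chaperones CRYAA and CRYAB, relatives of HSPB1, stayed at 0.69 or less in every library.

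The plain CCAAT box, searched with its reverse complement ATTGG, was found for 31 of the 73 members with a promoter window (42.5%) and for 39.7% of all genes.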
